A study of Mus musculus with 3 samples.

Results

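The Wnt ligands described here are Wnt4, Wnt6, Wnt5a, Wnt2b, Wnt9a and Wnt11, 6 genes chosen by name among the 18738 genes of the count tables and among their 19 Wnt ligand genes. Their UMI counts were summed over the cells of each cell class in each lot and are given as CPM, with every sum scaled to the same total, beside the share of cells with at least 1 UMI. The cells are thawed fetal ovarian somatic cells (FOSCs) of 3 lots, numbered 26, 29 and 30. Each lot pools E12.5 ovaries, freed of the mesonephros, from the embryos of 10 CD1 females, dissociated with trypsin, depleted by MACS of cells labelled for SSEA1 and CD31, cryopreserved, and profiled by 10X Genomics 3′ scRNA-seq on thaw. The lots are 1 condition, so cell classes were compared rather than lots. A lot is a pool of embryos, so every p-value here measures only the spread between 3 pools. Unless stated, this spread was estimated over the sums of 7 classes together, small classes included, without a term for the lot.

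Wnt proteins are secreted, lipid-modified ligands that bind Frizzled receptors on the producing cell or its neighbours. Together with Lrp co-receptors they stabilise β-catenin, which then acts with Tcf and Lef factors on target genes, while other Wnt proteins, classically Wnt5a and Wnt11, act through Ror receptors and cell polarity pathways. In the fetal ovary, Wnt4 and the R-spondin Rspo1 are needed for the supporting cells to follow the ovarian rather than the testicular path.

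The members lie on 6 chromosomes of GRCm38 (GENCODE gene bounds). Wnt4 is at chr4:137277489-137299726 on the plus strand, Wnt6 at chr1:74771892-74785322 (plus), Wnt5a at chr14:28504750-28527448 (plus), Wnt2b at chr3:104945272-104961921 (minus), Wnt9a at chr11:59306928-59333552 (plus) and Wnt11 at chr7:98835112-98855195 (plus). Wnt6 has Wnt10a as a neighbour, 6193 bases away on the same strand, and Wnt9a has Wnt3a, 16175 bases away on the other strand. Wnt4, Wnt5a, Wnt2b and Wnt11 have no other Wnt gene on their chromosome. Annotated transcripts overlap 4 members: the antisense gene Gm29539 covers 2463 bases of Wnt6 but no exon, Gm2670 covers 383 exonic bases of Wnt5a from the opposite strand, Gm43846 lies within an intron of Wnt2b, and the pseudogene Gm8398 covers 364 exonic bases of Wnt11 from the opposite strand. None of these 4 is a row of the count tables. Gm29539 and Gm43846 share no exonic base with Wnt6 and Wnt2b. Since the strand setting of the counting is not given in the sources used here, UMIs from the exonic overlaps of Gm2670 and Gm8398 cannot be told apart from those of Wnt5a and Wnt11.

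RefSeq promoter windows (GRCm38.p6, 250 bases before to 50 after the start) matched 5 of the 6 members, with 6 windows in all, since Wnt11 has a second window whose start lies 3733 bases inside the gene. The stretches upstream of the start are shown for Wnt4 and Wnt6, the ligands with the most UMIs in these cells, and for Wnt11, whose level was highest in stromal-like cells among the classes. They are chr4:137277385-137277488, chr1:74771642-74771891 and chr7:98834862-98835111, all on the plus strand and written 5′ to 3′. Capitals mark matches, on either strand, to the GC box GGGCGG, the TATA box TATAAA, the CCAAT box, the Tcf and Lef motif ATCAAAG and the E-box CACGTG. Overlapping copies were each counted. The RefSeq start of Wnt4 lies 146 bases inside the GENCODE gene, so 104 bases are shown.
Wnt4: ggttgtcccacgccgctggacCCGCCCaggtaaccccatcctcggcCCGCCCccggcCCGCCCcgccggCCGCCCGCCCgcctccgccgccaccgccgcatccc
Wnt6: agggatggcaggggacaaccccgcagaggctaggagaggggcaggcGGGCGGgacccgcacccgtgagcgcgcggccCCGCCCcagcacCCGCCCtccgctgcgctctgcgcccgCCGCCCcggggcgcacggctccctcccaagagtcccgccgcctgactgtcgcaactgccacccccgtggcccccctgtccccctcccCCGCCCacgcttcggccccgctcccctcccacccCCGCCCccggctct
Wnt11: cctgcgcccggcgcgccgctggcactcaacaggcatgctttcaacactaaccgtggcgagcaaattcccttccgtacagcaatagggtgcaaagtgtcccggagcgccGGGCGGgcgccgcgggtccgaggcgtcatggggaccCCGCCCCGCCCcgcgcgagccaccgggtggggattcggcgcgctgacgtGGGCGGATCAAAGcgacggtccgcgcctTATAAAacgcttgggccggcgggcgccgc
The GC-rich motif GGGCGG occurred 8 times in the 300-base window of Wnt4, 6 times in that of Wnt6, 5 in Wnt9a, 4 each in Wnt2b and the first window of Wnt11 and once in the second window of Wnt11, and 35.7% of 32851 promoter windows hold it at least once. The first window of Wnt11 was the one with TATAAA (13.6% of windows), 29 bases before its start, and with ATCAAAG, a sequence that Tcf and Lef factors bind (3.73% of windows), 51 bases before the start and directly after a GC box. The CCAAT box (37.4% of windows) was found in Wnt2b and CACGTG (7.15%) in Wnt9a. The share of G and C ran from 59.3% in the second and 71.3% in the first window of Wnt11 to 84.3% in Wnt4, against a median of 52.7% over all windows. A match is a description of the letters and not a mapped binding site.

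After the filters 28971 of 29103 barcodes remained, with 9711, 8553 and 10707 cells and 125898949, 87474664 and 141398825 UMIs in lots 26, 29 and 30. Lot 29 was the shallowest, with a median of 8949 UMIs per cell against 11126 and 11595. Between lots 69 barcode sequences were shared, 19 to 30 per pair of lots. Clustering without the Wnt pathway genes gave 21 clusters, 17 of which were named from marker lists. Pre-granulosa-like cells numbered 12078 (41.6% ± 1.8 of a lot, SD, n = 3), stromal-like cells 6387 (22.1% ± 0.68) and epithelial-like cells 6035 (20.8% ± 3.6). Among the 7 classes that were tested, 9 of 10 pre-granulosa genes, 8 of 8 epithelial genes and 8 of 8 stromal genes of the marker lists were highest in their own class. The classes were named from these same lists, so this is not a separate check of the names. Foxl2, the pre-granulosa transcription factor, stood at 4.94 CPM in pre-granulosa-like and 0.36 CPM in epithelial-like cells. Smaller classes were germ-like (1472 cells), endothelial-like (349), macrophage-like (135, led by the neutrophil genes S100a8 and S100a9), red blood cell-like (78) and Sertoli-like cells (390, of which 285 came from lot 29). Y-linked genes are absent from XX cells, and UMIs of them were found in 85.4%, 75.1% and 93.8% of Sertoli-like cells in lots 26, 29 and 30 and in 65.4%, 64.5% and 78.1% of cluster 15. Such cells made up 0.04% to 0.77% of pre-granulosa-like, 0.45% to 9.16% of epithelial-like and 1.43% to 14.4% of stromal-like cells, with the most in lot 29. Clusters 13, 14, 15 and 19 were left unnamed. They were led by Pax8 and Aldh1a3 (cluster 13, 803 cells), by Lars2 with few UMIs per cell (cluster 14, 718), by the steroidogenic genes Insl3 and Cyp11a1 (cluster 15, 407) and by the chromaffin genes Chga and Chgb (cluster 19, 119). Cluster 13 stayed unnamed because its scores on the pre-granulosa and Sertoli lists (1.19 and 1.05) were too close. It held 4.80 ± 3.23 CPM of Foxl2 and 627 ± 49.7 CPM of Fst, beside 4.94 and 800 CPM in pre-granulosa-like cells. The largest stromal-like cluster was cluster 4, with 2616 cells. Pre-granulosa-like cluster 3 came mostly from lot 30, with 2610 of its 2849 cells, and cluster 0 mostly from lot 26.

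Analysis of Wnt4, the ligand that restrains the testicular path, reveals the highest level among named classes in pre-granulosa-like cells. Wnt4 measured 552, 609 and 627 CPM there in lots 26, 29 and 30 (596 ± 39.4, SD, n = 3). In stromal-like cells it measured 296, 240 and 269 CPM (269 ± 28.2), and in epithelial-like cells 134, 137 and 178 CPM (150 ± 24.5). The lots of the 3 classes did not overlap. Unnamed cluster 13 held more Wnt4 than any named class, at 997, 1184 and 1097 CPM (1092 ± 93.6). Cluster 14 (492 ± 111 CPM) overlapped pre-granulosa-like cells. Below epithelial-like cells came clusters 15 (147 ± 91.6) and 19 (127 ± 35.5), then Sertoli-like (123 ± 59.9), macrophage-like (110 ± 46.3), endothelial-like (71.2 ± 27.8), red blood cell-like (61.0 ± 73.1) and germ-like cells (55.8 ± 21.6 CPM), whose neighbouring ranges over lots overlap. Epithelial-like and macrophage-like cells did not differ beyond the spread (log2 fold change 0.45, SE 0.30, edgeR adjusted p = 0.25).

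Wnt6, which is also linked to epithelial organisation in other organs, measured 666, 688 and 675 CPM in pre-granulosa-like cells (677 ± 11.1). The lots were within a narrow band, the narrowest of the members relative to the mean in this class. Epithelial-like cells followed with 235, 189 and 243 CPM (222 ± 29.1) and stromal-like cells with 133, 108 and 138 CPM (126 ± 16.0), again without overlap. The order of stromal-like and epithelial-like cells was thus opposite to that of Wnt4. Sertoli-like cells, most of which held a Y-linked UMI, stood at 971, 857 and 680 CPM (836 ± 147), a range that overlaps pre-granulosa-like cells, and the lowest of these values came from 16 cells of lot 30. The unnamed clusters ran from 414 ± 17.6 CPM in cluster 13 to 150 ± 52.6 in cluster 19, and the remaining named classes from 118 ± 93.3 CPM in red blood cell-like to 50.3 ± 16.5 CPM in germ-like cells. Wnt6 in stromal-like cells and macrophage-like cells did not differ beyond the spread (105 CPM in macrophage-like cells, edgeR adjusted p = 0.73).

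Wnt9a, a ligand best known from joint formation, measured 24.3, 23.0 and 22.5 CPM in pre-granulosa-like cells (23.2 ± 0.94) and 21.2, 17.0 and 19.9 CPM in epithelial-like cells (19.4 ± 2.2). These lots lay close together without overlapping. Stromal-like cells held 7.38, 4.15 and 6.92 CPM (6.15 ± 1.75), below every lot of both other classes. The highest mean level was in the low-UMI cluster 14, with 76.8, 66.4 and 53.9 CPM from 140 UMIs in all. The other small classes and clusters lay between 2.66 ± 1.07 CPM in endothelial-like cells and 21.6 ± 5.4 CPM in cluster 13.

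Wnt2b, known from mesenchyme that patterns the lung, was the scarcest member, with 8.46 ± 1.12 CPM in epithelial-like cells (9.61, 7.38 and 8.41). Pre-granulosa-like cells had 5.44, 3.74 and 4.81 CPM (4.66 ± 0.86) and stromal-like cells 1.36, 1.07 and 1.60 CPM (1.34 ± 0.27). No lot of these classes overlapped, although the stromal-like value rests on 96 UMIs. Macrophage-like cells held 3.60 ± 0.52 CPM from 7 UMIs, which did not differ from pre-granulosa-like cells beyond the spread (edgeR adjusted p = 0.45), and germ-like cells 2.27 ± 1.19 CPM. No UMI of Wnt2b was found in red blood cell-like cells, where a count of 0 allows up to 7.96 to 16.2 CPM per lot.

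Wnt5a, the prototype of the ligands that signal through Ror receptors, had the reverse distribution, with its lowest level among the 3 large classes in pre-granulosa-like cells at 34.8, 34.3 and 39.0 CPM (36.0 ± 2.6). Stromal-like cells held 161, 144 and 148 CPM (151 ± 9.2) and epithelial-like cells 125, 129 and 114 CPM (123 ± 7.5). Every stromal-like and epithelial-like lot lay above every pre-granulosa-like lot. Unnamed clusters 14 (166 ± 7.4 CPM) and 15 (152 ± 43.0 CPM) overlapped the stromal-like lots. The other small classes and clusters lay between 7.65 ± 11.03 CPM in red blood cell-like cells and 30.7 ± 2.0 CPM in cluster 13, with germ-like cells at 12.3 ± 4.0 CPM.

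Wnt11, a further ligand of the cell polarity branch, measured 15.6, 17.9 and 17.6 CPM in stromal-like cells (17.0 ± 1.2). It measured 6.46, 6.67 and 8.52 CPM in pre-granulosa-like cells (7.22 ± 1.13) and 6.38, 7.33 and 5.54 CPM in epithelial-like cells (6.42 ± 0.90). The latter classes overlapped, and both lay below every stromal-like lot. Clusters 13, 14 and 15 ranged from 9.40 to 10.1 CPM, and the other named classes from 1.13 to 3.49 CPM. Among named classes Wnt11 was thus highest in stromal-like cells, Wnt5a was highest there as well, and Wnt2b was highest in epithelial-like cells.

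**Figure D1:**
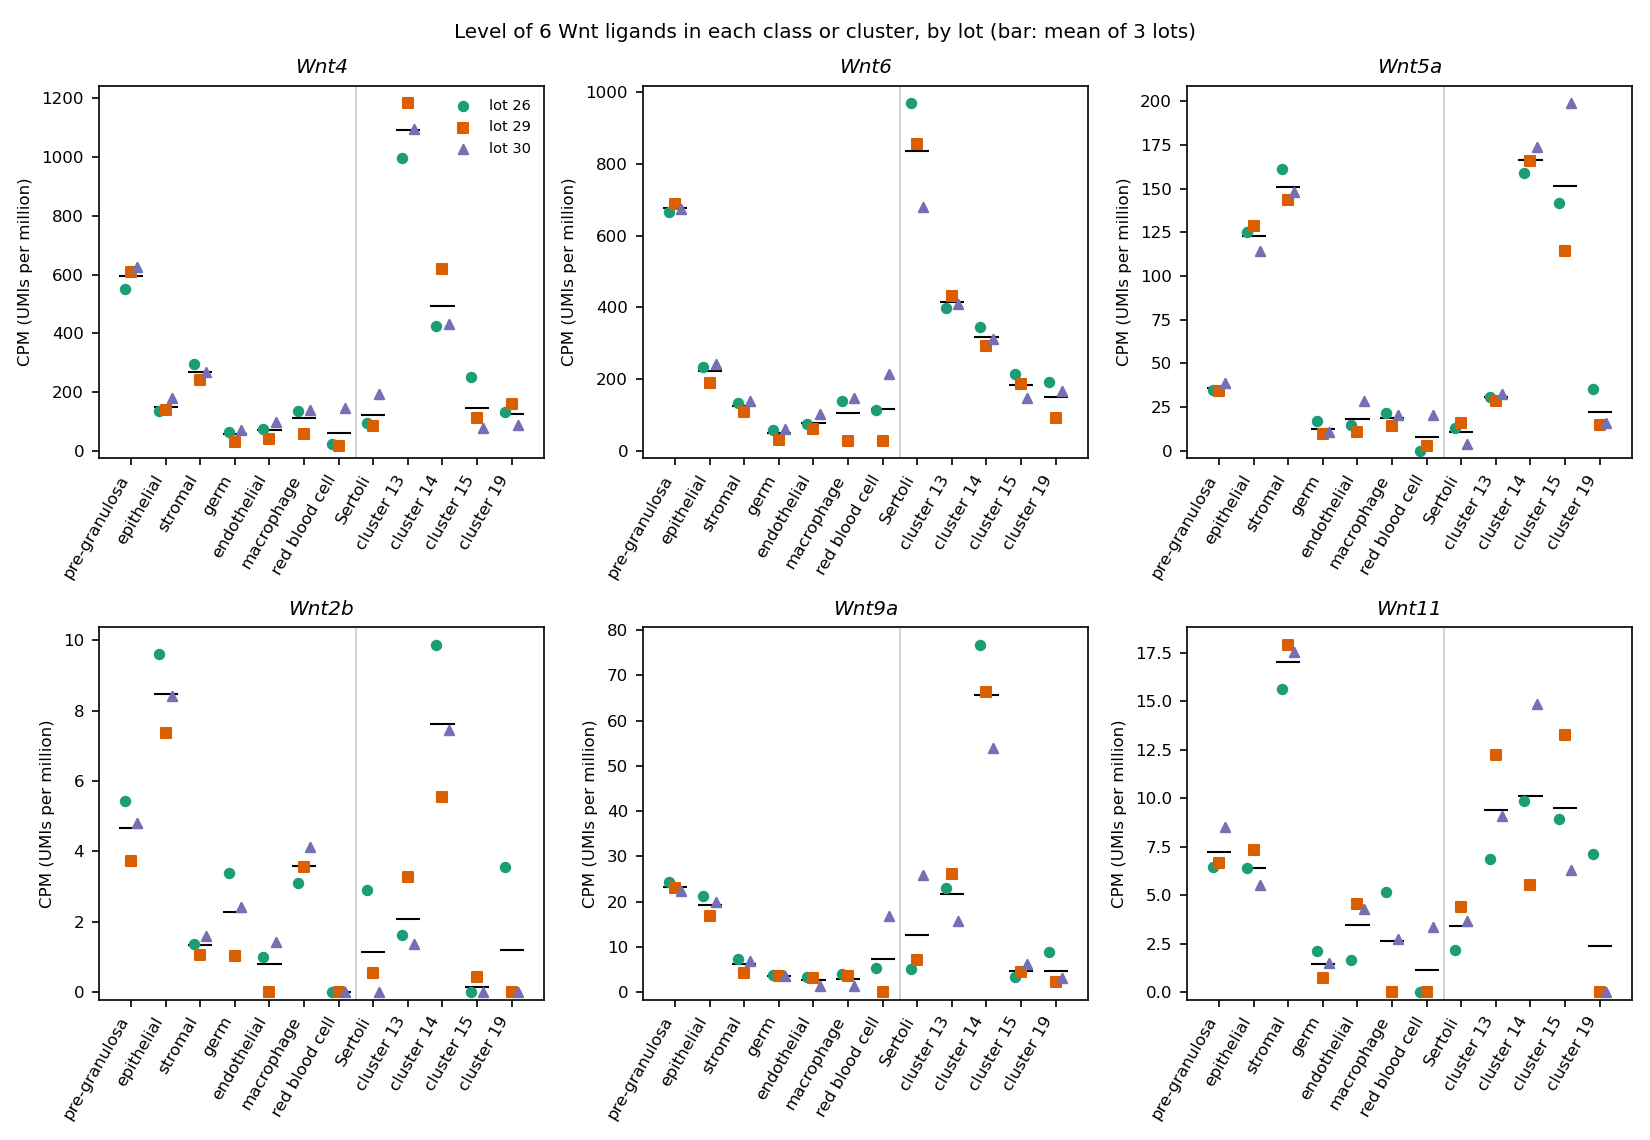
Level of each of the 6 ligands in CPM (linear vertical axes from 0, scaled per gene) in the named classes and the unnamed clusters on the horizontal axis, with a point for each of the 3 lots and a bar at their mean. Wnt4 and Wnt6 stand far higher in pre-granulosa-like than in epithelial-like or stromal-like cells, while Wnt5a shows the opposite, and the classes right of the grey line were given as levels only.

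To compare the 3 large classes, the sums were tested with the edgeR quasi-likelihood test over 14444 genes, which all 6 members entered. Pre-granulosa-like cells had more Wnt4 than epithelial-like cells (log2 fold change 2.06, SE 0.27, adjusted p = 9.1e-07) and more Wnt6 (1.68, SE 0.25, adjusted p = 7.9e-06). They had less Wnt5a (-1.70, SE 0.16, adjusted p = 7.2e-09) and less Wnt2b (-0.79, SE 0.20, adjusted p = 0.0033). These are 2 members higher and 2 lower of 6, beside 45% of all genes called in this comparison (24.8% higher and 20.2% lower). Wnt9a (0.33, SE 0.15, adjusted p = 0.079) and Wnt11 (0.24, SE 0.19, adjusted p = 0.31) did not pass. With the lot as a block, which pairs the class sums of a lot, Wnt9a was called at the same size (0.33, adjusted p = 0.0038). For Wnt11 the sign turned without lot 30 (-0.05, adjusted p = 0.93).

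Against stromal-like cells, all 6 members differed, 4 of them higher and 2 lower in pre-granulosa-like cells, where 49.1% of all genes were called (26.3% higher and 22.8% lower). Wnt6 was 2.56 higher on the log2 scale (SE 0.26, adjusted p = 1.5e-08), Wnt9a 2.04 (SE 0.16, adjusted p = 2.6e-10), Wnt2b 1.91 (SE 0.24, adjusted p = 8.7e-07) and Wnt4 1.29 (SE 0.26, adjusted p = 2.0e-04). Wnt5a (-1.92, SE 0.16, adjusted p = 6.0e-10) and Wnt11 (-1.09, SE 0.18, adjusted p = 2.4e-05) were lower. All 6 calls were also made when cluster 4 was left out of the stromal-like sums, and when cluster 3, mostly of lot 30, was left out of the pre-granulosa-like sums. Scaling by library totals alone, in place of TMM, moved the median gene of this comparison by -0.14 on the log2 scale and the share of calls that were higher from 53.6% to 41.3%, and the count of members called was 6 there too.

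Between stromal-like and epithelial-like cells 5 members differed, 2 higher and 3 lower in stromal-like cells, where 31.3% of all genes were called (16.9% higher and 14.4% lower). Wnt2b (-2.70, adjusted p = 1.2e-08) and Wnt9a (-1.71, adjusted p = 1.4e-08) were lower and Wnt11 was higher (1.34, adjusted p = 4.5e-06) in stromal-like cells by the edgeR test. Wnt4 was higher (0.76, SE 0.26, adjusted p = 0.026) and Wnt6 lower (-0.89, SE 0.25, adjusted p = 0.0077), but both calls were lost in some alternatives at much the same size. Without lot 26 the values were 0.63 (adjusted p = 0.26) for Wnt4 and -0.88 (0.12) for Wnt6, and with library totals only 0.84 (0.059) and -0.81 (0.068), which leaves 3 members called. Wnt4 was also lost at resolutions 0.4 (0.55, adjusted p = 0.11) and 1.2 (0.57, adjusted p = 0.098), and Wnt6 without lot 30 (-0.89, adjusted p = 0.079). Wnt5a did not pass (0.22, SE 0.16, adjusted p = 0.30), although the lots of these classes did not overlap. With only the 3 large classes in the edgeR fit it was called at much the same size (0.23, SE 0.083, adjusted p = 0.048). The stromal-like level of Wnt6 fell from 126 to 72.7 and 69.4 CPM at clustering resolutions of 0.4 and 1.2, and that of Wnt9a from 6.15 to 3.58 and 3.40 CPM, where the class held 3398 and 4012 cells and the unnamed clusters 5059 and 3630, against 2047 at the main resolution. With called doublets removed, Wnt6 and Wnt2b in stromal-like cells fell to 87.9 and 0.95 CPM (0.70 of their levels each). Wnt4 in epithelial-like cells fell to 125 CPM (0.83). Doublets were called in 5.91% to 10.8% of stromal-like, 6.70% to 9.35% of epithelial-like and 0.50% to 1.28% of pre-granulosa-like cells over lots. With all cells that held a Y-linked UMI removed, 4, 6 and 5 members were called in the 3 comparisons, as with them. The 3 comparisons share class sums and are not independent of each other.

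**Figure D2:**
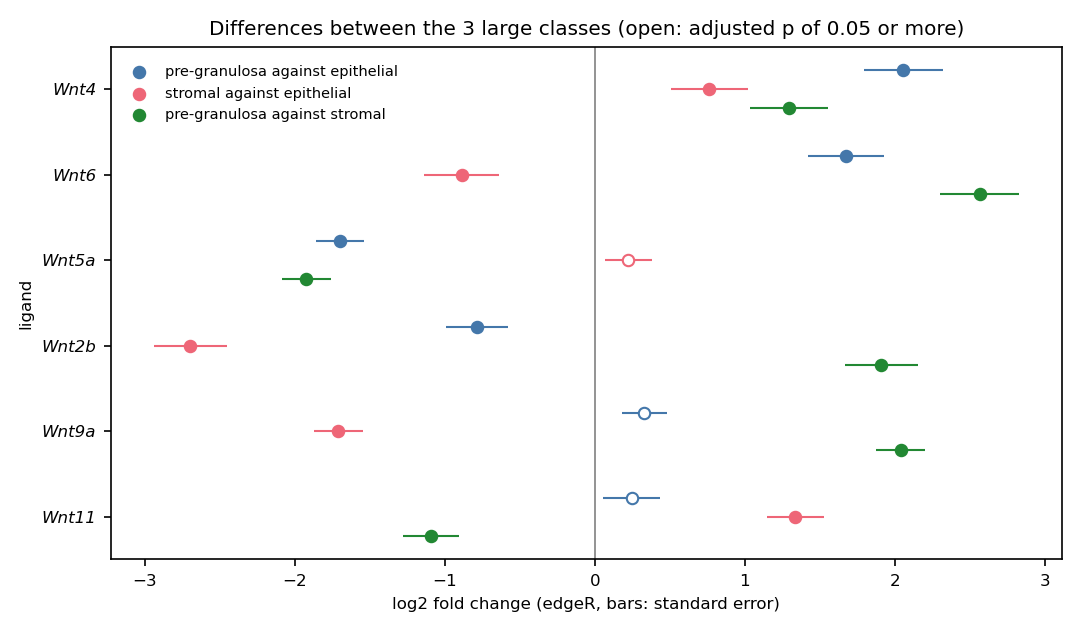
Log2 fold change of each ligand (horizontal axis) in the 3 comparisons between large classes, with bars of 1 standard error from the edgeR fit on 3 lots. Filled points passed an adjusted p of 0.05 and the 3 open points did not. Wnt6 in pre-granulosa-like against stromal-like cells lies at 2.56 and Wnt2b in stromal-like against epithelial-like cells at -2.70.

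Shares of cells with a UMI were compared after thinning each cell to 4000 UMIs, which left out 835 shallower cells. At this depth 90.4% ± 0.75 of pre-granulosa-like cells held Wnt6 (98.8% before thinning), as did 44.6% of epithelial-like cells (66.9%) and 24.2% of stromal-like cells (39.9%). For Wnt4 the shares were 80.6% ± 1.1 (94.2%), 33.3% (60.5%) and 47.8% (64.7%) in the same order of classes. Endothelial-like cells gave 15.4% for Wnt4 and 15.7% for Wnt6, and germ-like cells 15.1% and 14.0%. Their median depths (14132 to 15724 and 18134 to 23767 UMIs) exceeded the 8307 to 11210.5 of pre-granulosa-like cells. Shares at or below these are not read as expression, and their source was not tested. Called doublets made up 8.90% to 15.8% of germ-like and 11.4% to 21.8% of endothelial-like cells over lots. In germ-like, endothelial-like and macrophage-like cells the Wnt6 UMIs per Wnt4 UMI, 0.92, 1.16 and 0.86, stood beside the 1.06 ± 0.07 of all kept cells of a lot, with a range of 0.50 to 1.05 over the macrophage-like lots. Red blood cell-like cells stood higher, at 2.79 ± 2.13 (1.47 to 5.25). The ratio was 1.14 ± 0.07 in pre-granulosa-like, 1.49 ± 0.22 in epithelial-like and 0.47 ± 0.04 in stromal-like cells. It reached 8.05 ± 3.91 in Sertoli-like cells and was 0.38 ± 0.02 in cluster 13.

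Wnt5a was found in 41.0% ± 2.0 of stromal-like and 35.1% ± 1.2 of epithelial-like cells after thinning (65.0% and 66.5% before), in 11.7% ± 0.76 of pre-granulosa-like cells (26.4%) and in 4.22% of germ-like cells (16.5%). The thinned share of pre-granulosa-like cells thus lay above that of germ-like cells in every lot. Wnt9a UMIs were seen in 8.99% of pre-granulosa-like and 7.49% of epithelial-like cells, Wnt11 in 6.25% of stromal-like cells and Wnt2b in 3.20% of epithelial-like cells. For comparison, germ-like cells gave 1.32%, 0.50% and 0.85% for these 3 ligands and endothelial-like cells 1.15%, 2.15% and 0.19%. The 0.31% of Wnt2b in stromal-like cells lay below the germ-like share and is not read as expression. The 1.95% of Wnt9a in stromal-like cells lay above both shares, within the range of endothelial-like lots (0 to 2.30%), and its level was lower in germ-like (-0.75, edgeR adjusted p = 0.0020) and endothelial-like cells (-1.11, adjusted p = 0.015) than in stromal-like cells. The 3.00% and 2.51% of Wnt11 in pre-granulosa-like and epithelial-like cells lay above every germ-like lot but within the endothelial-like range (0.58% to 3.57%). In CPM, Wnt11 was lower in endothelial-like cells than in both (-1.35, adjusted p = 0.0034, and -1.11, adjusted p = 0.020, by edgeR).

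In a pre-granulosa-like cell Wnt4 and Wnt6 made up nearly all Wnt ligand UMIs. The 19 ligands together reached 1370 ± 47.8 CPM there, of which Wnt6 gave 49.4% and Wnt4 43.5%, while Wnt5a gave 2.63%. Epithelial-like cells held 556 ± 41.7 CPM, with 39.9% Wnt6, 26.9% Wnt4 and 22.2% Wnt5a. Stromal-like cells held 617 ± 54.2 CPM, with 43.5% Wnt4, 24.5% Wnt5a and 20.4% Wnt6. These are shares of UMIs, which 3′ counting takes once per transcript and which were not divided by gene length. As a share of a lot's UMIs of each gene, pre-granulosa-like cells held 62.6% of Wnt4 and 67.2% of Wnt6 with 41.6% of the cells, while epithelial-like and stromal-like cells held 39.8% and 37.0% of Wnt5a.

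**Figure D3:**
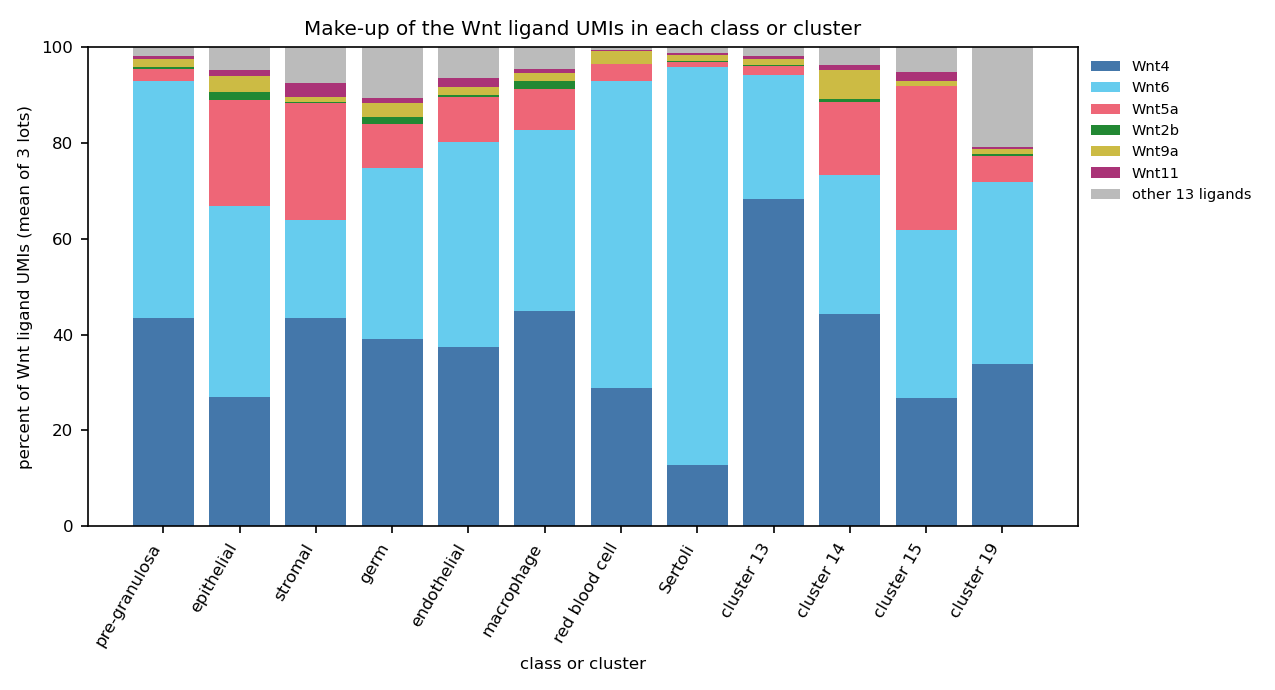
Make-up of the Wnt ligand UMIs (vertical axis, percent, mean of 3 lots) in each class or cluster, stacked by ligand. Wnt4 and Wnt6 fill 43.5% and 49.4% of the bar of pre-granulosa-like cells, and Wnt5a takes 22.2% and 24.5% in epithelial-like and stromal-like cells.

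Single cells held more than 1 member in most of the pre-granulosa-like class. After thinning to 4000 UMIs, 61.1% ± 0.88 of pre-granulosa-like cells had UMIs of 2 members and 17.8% of 3 or more, and 1.73% had none. Among epithelial-like cells 20.3% had none and 29.03% had 2, and among stromal-like cells 23.5% had none and 30.0% had 2. Wnt4 and Wnt6 were found together in 73.3% of pre-granulosa-like cells, beside 72.9% if their detection were unrelated. The corresponding values were 18.2% and 15.0% in epithelial-like cells and 14.1% and 11.7% in stromal-like cells. Wnt5a and Wnt6 were found together less often than unrelated detection gives in epithelial-like cells (12.03% beside 15.6%) and stromal-like cells (7.51% beside 9.96%). These are descriptions of cells within 3 pools, with called doublets kept, and were not tested.

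Within the large classes the members differed between clusters, given here as levels with no test, since clusters are drawn from the same cells. Among pre-granulosa-like clusters, Wnt4 was highest in cluster 1, with Sprr2d among its leading genes, at 752, 825 and 889 CPM, and lowest in cluster 2, led by Lipg, Bmp2 and Gadd45g among others, at 418, 460 and 413 CPM. Wnt6 followed the same order (844 ± 15.7 against 569 ± 21.8 CPM), as did Wnt9a (31.3 ± 2.7 against 17.4 ± 1.7 CPM). Wnt5a had the opposite order, with 52.6 ± 6.6 CPM in cluster 2 and 19.1 ± 2.1 CPM in cluster 1. In all 4 cases the lots of the 2 clusters did not overlap.

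Stromal-like clusters differed in their mix of ligands. Cluster 11, led by Lum and Inhba, held 290.2, 299.6 and 297 CPM of Wnt5a and 510, 542 and 548 CPM of Wnt4, but 45.1, 42.1 and 43.2 CPM of Wnt6. Cluster 12, led by Dkk2 and Foxd1, held 102 ± 10.6 CPM of Wnt5a, 329 ± 71.4 CPM of Wnt4 and 304, 173 and 301 CPM of Wnt6. Wnt6 was thus 5.97 times higher in cluster 12 than in cluster 11, the widest ratio of any member between clusters of a large class. Cluster 4 lay between them for Wnt6 (138 CPM), and cluster 5, with Itga8 among its leading genes, had the least Wnt4 (175 ± 31.7 CPM).

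Among epithelial-like clusters, Wnt6 and Wnt5a were opposed. Cluster 7, led by Upk3b and Krt7, genes of the surface epithelium, held 362, 334 and 333 CPM of Wnt6 and 64.2, 77.7 and 82.1 CPM of Wnt5a. Cluster 10, led by Pappa2, Krt19, Hoxd11 and Hand2, held 64.8, 51.7 and 68.3 CPM of Wnt6 and 227, 204 and 203 CPM of Wnt5a. Cluster 10 also had more Wnt11 (11.4 ± 1.5 against 2.81 ± 1.18 CPM). Wnt4 varied little, from 127 ± 13.9 CPM in cluster 10 to 160 ± 22.0 in cluster 7. The clusters led by histone genes (6) and by Cdc20 and Ccnb1 (9), genes of dividing cells, lay between these for Wnt6 (203 and 222 CPM) and Wnt5a (127 and 113 CPM). Cluster 10 held the most Wnt5a of the epithelial-like clusters, so leaving it out lowers the Wnt5a level of the class, from 123 to 107 CPM. This setting was added after the data were seen, so its calls are no separate support. Without cluster 10, the difference of Wnt5a between stromal-like and epithelial-like cells became 0.41 (edgeR adjusted p = 0.043). That of Wnt9a between pre-granulosa-like and epithelial-like cells became 0.38 (edgeR adjusted p = 0.0498).

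**Figure D4:**
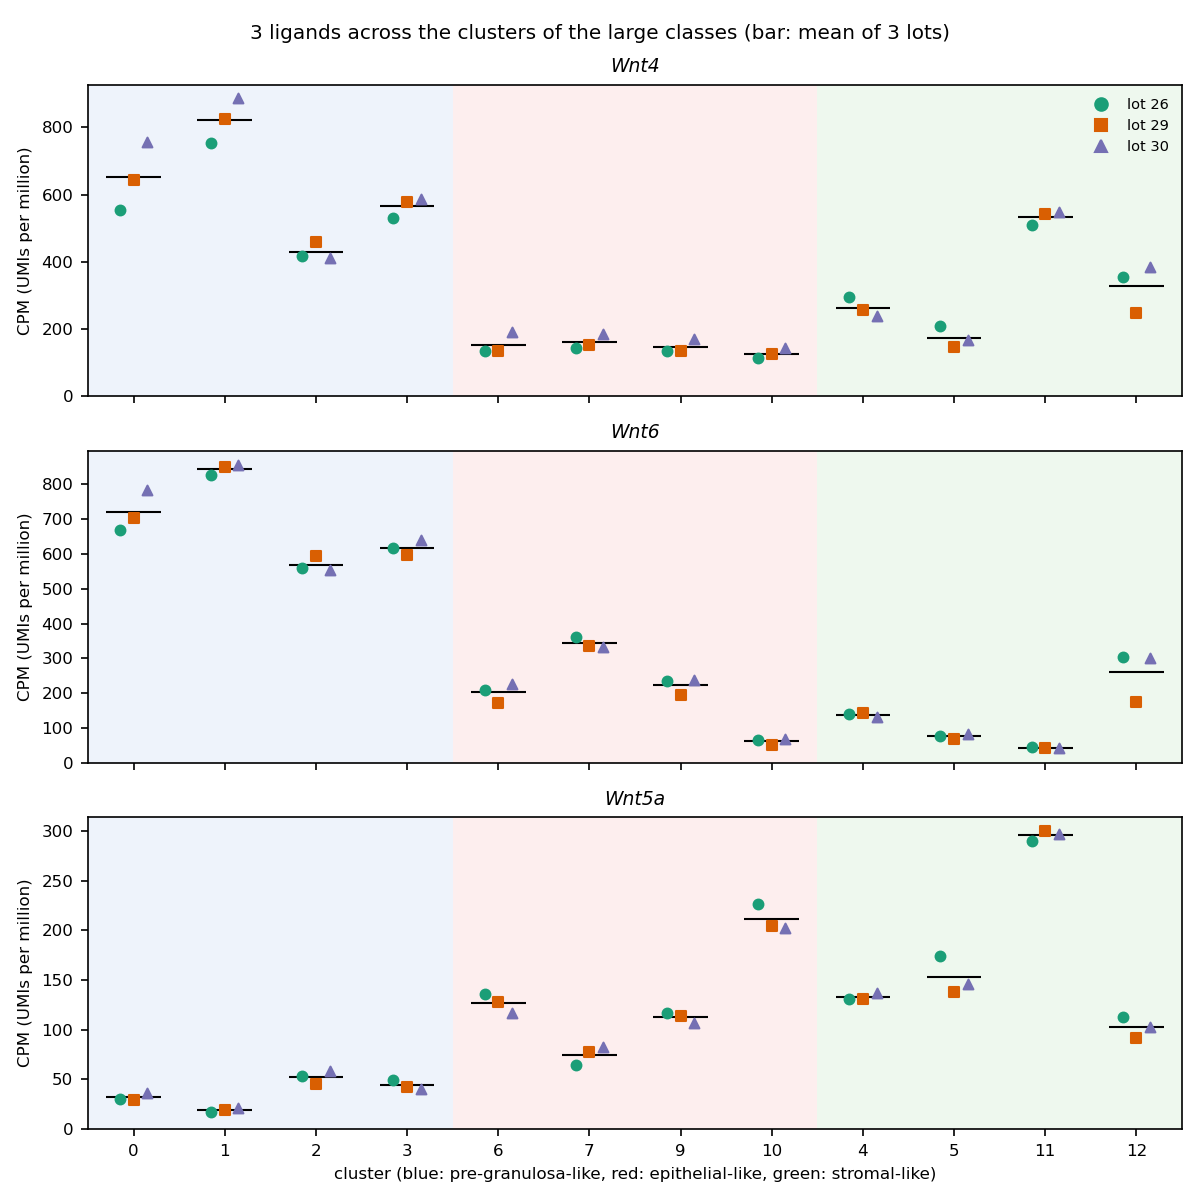
Level of Wnt4, Wnt6 and Wnt5a in CPM (vertical axes from 0) in the 12 clusters of the 3 large classes (horizontal axis, shaded by class), with a point for each lot and a bar at the mean. In stromal-like cluster 11 Wnt5a reached 296 CPM and Wnt6 43.5 CPM, and epithelial-like clusters 7 and 10 differ in opposite directions for these ligands.

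Of the 13 other Wnt ligands, 5 passed the filter on low counts. Wnt5b, a close relative of Wnt5a, was the most abundant of them, with 40.1, 34.5 and 41.9 CPM in stromal-like cells (38.8 ± 3.9), 23.2 ± 1.2 CPM in epithelial-like and 22.0 ± 0.93 CPM in pre-granulosa-like cells. Wnt5b was higher in stromal-like than in epithelial-like cells (0.67, SE 0.13, edgeR adjusted p = 0.00035) and the latter did not differ from pre-granulosa-like cells beyond the spread (adjusted p = 0.95). Wnt2, Wnt10a and Wnt16 were also higher in stromal-like than in epithelial-like cells, so that 4 of 5 were called higher and 0 lower, beside 16.9% and 14.4% of all genes. Wnt10a, the neighbour of Wnt6, was higher in pre-granulosa-like than in epithelial-like cells (1.34, SE 0.23, adjusted p = 4.5e-05), with 3.83 ± 0.51 and 1.57 ± 0.25 CPM. Wnt16 rested on 146 UMIs in stromal-like cells and 6 in pre-granulosa-like cells. Wnt3 reached 5.38 ± 0.81 CPM in germ-like cells.

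The genes that Wnt ligands act through were taken from lists of the pathway. Their counts stand beside 45%, 49.1% and 31.3% of all genes called in pre-granulosa-like against epithelial-like, pre-granulosa-like against stromal-like and stromal-like against epithelial-like cells. With the lot as a block, which pairs the sums, these shares became 63.4%, 66.1% and 52.6%, and no pathway call was lost. Values are from the fit without the block unless stated. Of 15 receptors and co-receptors, 1 was higher and 7 lower in pre-granulosa-like than in epithelial-like cells, 3 were higher and 7 lower than in stromal-like cells, and 6 were higher and 3 lower in stromal-like than in epithelial-like cells. Ror2, a receptor of Wnt5a, measured 14.4, 11.6 and 12.4 CPM in stromal-like cells, 2.25 ± 0.06 CPM in epithelial-like cells and 0.89 ± 0.31 CPM in pre-granulosa-like cells. Stromal-like cells, which had the highest mean level of Wnt5a among the large classes, also held the most Ror2. Between stromal-like and epithelial-like cells Ror2 differed in the main edgeR fit (2.43, SE 0.19, adjusted p = 3.6e-10), but Wnt5a was not called (0.22, adjusted p = 0.30). Ror2 was lower in pre-granulosa-like than in stromal-like cells by the edgeR test (-3.65, SE 0.20, adjusted p = 3.0e-13). Ror1 (-3.39) and Fzd7, a Frizzled receptor (-2.49), were lower in the same comparison, as was Fzd10 (-3.38), which rested on 13 UMIs in pre-granulosa-like cells. Of the secretion genes, the acyltransferase gene Porcn was lower in pre-granulosa-like than in stromal-like cells (-0.65, SE 0.24, adjusted p = 0.030) and Wls was not called in any of the 3 comparisons. With the lot block Porcn was lower than in epithelial-like cells too (-0.48, adjusted p = 0.045).

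Of 12 cytoplasmic and nuclear genes, 1 was called in pre-granulosa-like against epithelial-like cells, 3 against stromal-like cells, and 4 in stromal-like against epithelial-like cells. The first 2 counts lie below the shares of all genes called (45% and 49.1%) and the last is near its share (31.3%). With the lot block 5, 8 and 8 were called, beside 63.4%, 66.1% and 52.6% of all genes. There the first count lies below its share, the second near it and the third above it. The transcription factor gene Lef1 measured 60.5 ± 2.9 CPM in pre-granulosa-like, 68.6 ± 5.6 in epithelial-like and 33.7 ± 4.9 CPM in stromal-like cells and was higher in pre-granulosa-like than stromal-like cells (0.98, SE 0.12, adjusted p = 1.5e-07). Tcf7 differed in the same direction (0.39), while Tcf7l1, often a repressor of Wnt targets, was lower in pre-granulosa-like than in stromal-like cells (-1.19, adjusted p = 3.0e-09 by edgeR). Dvl1, a cytoplasmic relay, was lower in stromal-like than in epithelial-like cells (-0.38, adjusted p = 0.049 by edgeR).

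Among 9 genes of R-spondins and their receptors and ubiquitin ligases, which enhance Wnt responses or limit the receptors, 8 were tested. Of these, 2 were higher and 2 lower in pre-granulosa-like than in epithelial-like cells, 3 higher and 2 lower than in stromal-like cells, and 0 higher and 4 lower in stromal-like than in epithelial-like cells. The first 2 counts are near the shares of all genes called (45% and 49.1%). Rspo1 measured 277, 276 and 252 CPM in pre-granulosa-like cells, 129 ± 7.0 CPM in epithelial-like and 53.1 ± 7.0 CPM in stromal-like cells. It thus had the order of Wnt6 over these classes, and was higher in pre-granulosa-like than in epithelial-like cells (1.13, SE 0.20, edgeR adjusted p = 5.1e-05). The receptor gene Lgr5 (83.1 ± 19.1, 49.9 ± 17.4 and 12.2 ± 5.3 CPM) and the ubiquitin ligase gene Rnf43 (10.5 ± 2.5, 7.65 ± 1.62 and 2.15 ± 1.22 CPM) ran in the same order, and Rnf43 was not called between pre-granulosa-like and epithelial-like cells (adjusted p = 0.089 by edgeR), but was with the lot block (0.51, adjusted p = 0.0011). Rspo3 had the opposite distribution, with 1.44 ± 0.31 CPM in pre-granulosa-like cells against 31.4 ± 8.9 and 39.1 ± 6.0 CPM (-4.40 and -4.64 on the log2 scale).

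Of 6 feedback targets, 0 were higher and 3 lower in pre-granulosa-like than in epithelial-like cells, 2 were higher and 3 lower than in stromal-like cells, and 2 were higher and 2 lower in stromal-like than in epithelial-like cells, where 45%, 49.1% and 31.3% of all genes were called. With the lot block the first comparison had 2 higher and 3 lower, beside 63.4% of all genes called. The added ones were Sp5 (0.20, edgeR adjusted p = 0.034) and Nkd2 (0.45, edgeR adjusted p = 0.0017). Sp5, a direct target of β-catenin signalling, measured 91.5 ± 13.1, 83.1 ± 7.9 and 18.3 ± 4.2 CPM in pre-granulosa-like, epithelial-like and stromal-like cells and was higher in pre-granulosa-like than in stromal-like cells (2.46, SE 0.21, edgeR adjusted p = 1.0e-09). Notum, which removes the lipid of Wnt proteins, and Apcdd1, a membrane inhibitor, were lower in pre-granulosa-like than in stromal-like cells (-3.12 and -3.13). Nkd2 was lower as well (-0.71, adjusted p = 0.0041 by edgeR). In pre-granulosa-like cells Notum rested on 52 UMIs and Apcdd1 on 20. Axin2 was higher, with 55.3 ± 4.1 CPM in pre-granulosa-like and 30.4 ± 3.6 CPM in stromal-like cells (edgeR adjusted p = 9.8e-08). Feedback targets thus differed in both directions, with the more abundant called genes, Sp5 and Axin2, higher in pre-granulosa-like cells and the scarcer ones lower.

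Among the antagonists, 12 genes of which 9 were tested, 6 were lower and 1 higher in pre-granulosa-like than in stromal-like cells. Another 6 lower and 2 higher were counted in pre-granulosa-like than in epithelial-like cells. These stand beside 22.8% and 20.2% of all genes lower and 26.3% and 24.8% higher in these comparisons. The list includes Kremen1 and Kremen2, which are not secreted. Of these, Kremen1 was higher and Kremen2 lower in pre-granulosa-like than in epithelial-like cells. Sfrp1, which binds Wnt proteins outside the cell, measured 304, 322 and 317 CPM in stromal-like cells (314 ± 9.2), 72.5 ± 6.2 CPM in epithelial-like and 29.5 ± 3.0 CPM in pre-granulosa-like cells. No lots of these classes overlapped, and the difference of pre-granulosa-like from stromal-like cells was -3.27 (SE 0.15, edgeR adjusted p = 1.4e-14). Dkk2, which binds Lrp co-receptors, measured 30.5 ± 4.8 CPM in stromal-like and 0.29 ± 0.06 CPM in pre-granulosa-like cells (-6.59, SE 0.36, adjusted p = 1.8e-12 by edgeR), and it leads stromal-like cluster 12. Dkk1 (-3.56) and Frzb (-4.50) were also lower in pre-granulosa-like than in stromal-like cells. In pre-granulosa-like cells Dkk1 rested on 63 UMIs, Dkk2 on 36 and Frzb on 17. Frzb also varied between stromal-like lots, at 2.61, 6.76 and 1.35 CPM in lots 26, 29 and 30. In stromal-like against epithelial-like cells 5 antagonists were higher and 1, Kremen2, was lower, beside 16.9% and 14.4% of all genes.

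**Figure D5:**
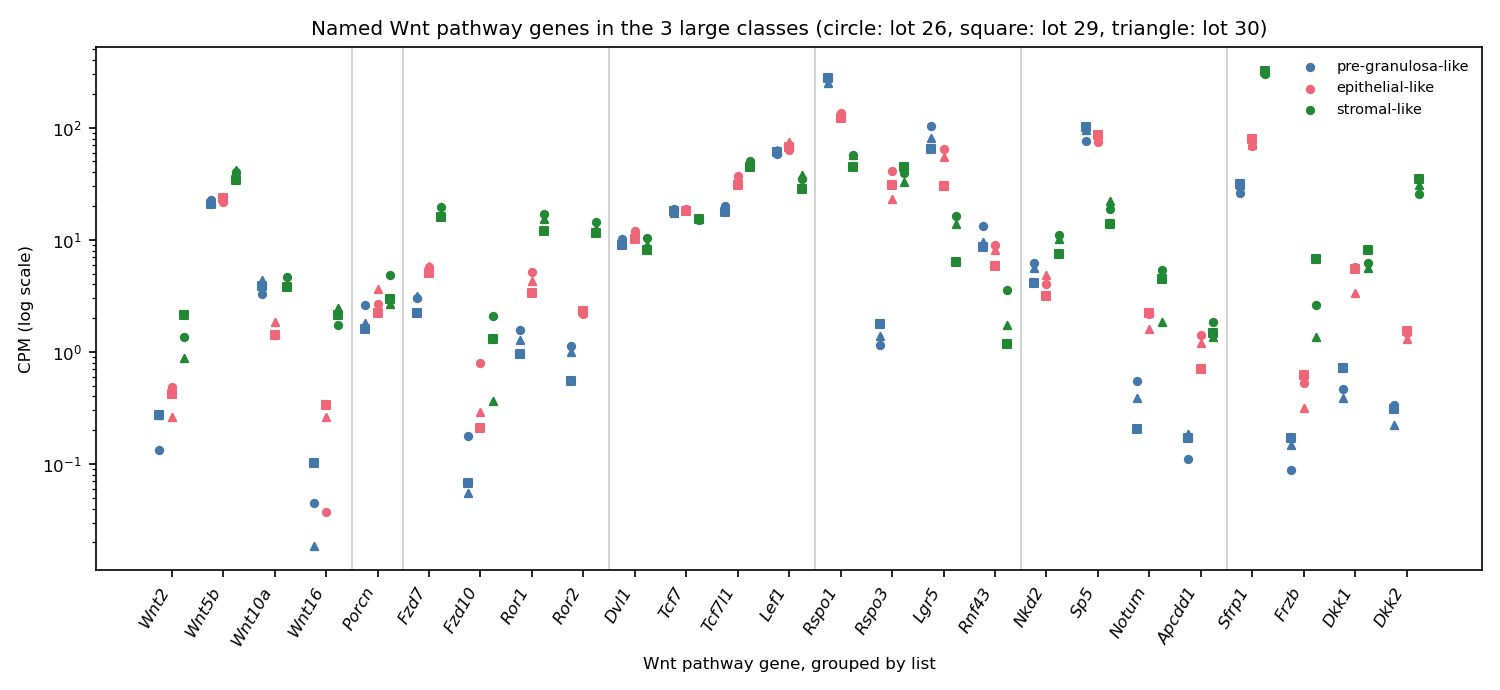
Level in CPM (vertical axis, log scale) of 25 named genes of the Wnt pathway (horizontal axis, grouped by list with grey lines between) in the 3 large classes by colour, with a symbol for each lot. Sfrp1, Dkk2, Ror1, Ror2 and Fzd7 stand highest in stromal-like cells, and Rspo1 and Lgr5 in pre-granulosa-like cells.

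The genes whose levels most resembled each member were found over 63 sums of 21 clusters in 3 lots, by Pearson's r of log2(CPM + 1) among 11283 genes. They are a description, since sums of a lot share its library and depth. For Wnt4 the closest were Zbtb7c (0.91), Pde1a (0.89) and Dpf3 (0.89), then Dnajb9 and Mmp23 (0.87 each). For Wnt6 they were Rnd2, Kctd14, Lgals7, Pank1 and Cst8 (0.92 to 0.93), and for Wnt5a Gucy1a3, Cald1, Alcam, Amer1 and Gpc3 (0.89 to 0.91). Wnt2b was most like Crb2 (0.85), followed by 1700026D08Rik, Gbp2, Bnc1 and Arhgap22. Wnt9a was most like Plxna4 (0.87) and Rspo1 (0.86), then Prkd1, Serpini1 and Gabra4. Wnt11 was most like Wnt5b (0.86), then Efemp2, Col6a1, Lbh and Matn2. Between members r was 0.73 for Wnt5a and Wnt11, 0.60 for Wnt4 and Wnt6 and -0.11 for Wnt6 and Wnt5a.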

How the data were processed

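Count tables of 3 lots were used as deposited. The authors made these UMI counts with UMI-tools, STAR 2.7 on GRCm38, featureCounts 2.0.1 and umi_tools count, without normalization. The annotation release and strand setting are not given in the sources used here.

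Cells with 200 to 9000 genes and at most 10% mitochondrial UMIs were kept, merged and clustered in Seurat 5.3.0 (R 4.3.3; 2000 variable genes, 50 principal components, resolution 0.8). The 75 Wnt pathway genes were left out of clustering, which removed 17 of the variable genes. Clusters were named from 11 marker lists (mean difference of log2(CPM + 1) from the median cluster of at least 1, a lead of 0.25, 3 raised markers). The members and lists were chosen with earlier results of these data known. UMIs were summed per class and lot for 7 classes with at least 10 cells in every lot and compared by the quasi-likelihood test of edgeR 4.0.16, after TMM scaling and the filterByExpr filter. P-values were adjusted by Benjamini and Hochberg's method over the 14444 genes that passed, with a threshold of 0.05. Named pathway genes are up to 4 called genes per list with the largest change, other ligands with at least 5 CPM, and the 5 genes most like each member among those of at least 20 CPM in a sum. Axin2, Wls, Kremen1 and Kremen2 are named in addition. On simulated data for pre-granulosa-like against epithelial-like cells, run on 14461 genes, 195 of 200 changed genes were recovered (98 of 103 changed 2-fold and 97 of 97 changed 4-fold), and 2.01% of calls were false. The simulated counts had a single fixed spread for all genes, no lot effect, and changes only in genes with many counts. These rates therefore check the code and need not hold for the members.

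The class sums of a lot come from 1 pool and so are paired by lot. Same-lot sums deviated from their class means with a median correlation of 0.14 (63 pairs, 38 above 0.1). Doublets (Scrublet in scanpy 1.11.5) were kept, and removed in an alternative. Alternatives were other resolutions, 30 principal components, the Wnt genes put back, Y-linked cells removed, other scaling, no filter, DESeq2 1.42.0, a lot block, a fit to the 3 large classes and the loss of any lot. Leaving out clusters 3, 4 or 10 was added after the data were seen. Binomial errors and UMI floors cover counting error only. Gene bounds come from GENCODE (GRCm38).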

Additional observations from a re-analysis of the deposited data

How the results depend on the processing

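Of 306 alternative values of the members' log2 fold changes, 294 kept their direction and side of the threshold, 7 lost the call, 4 gained it and 1 turned. In pre-granulosa-like against epithelial-like cells the 4 calls became 5 with the lot as a replicate block and 5 without epithelial-like cluster 10, and all other settings gave 4. Wnt11 turned to -0.048 without lot 30 (range with each lot left out, -0.048 to 0.37). Against stromal-like cells 6 members were called in every alternative. In stromal-like against epithelial-like cells the 5 calls became 3 with library totals only and 3 to 5 with each lot left out. Wnt5a was called with only the 3 large classes in the fit (0.23, adjusted p = 0.048). The lot block raised the pathway genes called from 26, 34 and 31 to 37, 43 and 41 in the 3 comparisons, in the order of the report. The share of all genes called rose with the block too, from 45%, 49.1% and 31.3% to 63.4%, 66.1% and 52.6%. The rise is thus not particular to the pathway. DESeq2 gave 28, 39 and 36 pathway genes, and its share over all genes was not counted. Among the members the block changed no call but that of Wnt9a. The causes were not tested.

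The order of the 3 large classes by share of cells with a UMI held for all 6 members at 2000 UMIs, but for 3 of 6 in cells as deposited, where depth differs between classes. Of 198 alternative levels, 19 moved by more than the spread between lots, most of them in stromal-like cells. Depth limits Wnt2b and the small classes: 96 UMIs of Wnt2b were counted in stromal-like and 5 in endothelial-like cells.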

Other observations

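Unnamed cluster 13, led by Lypd1, Pax8 and Aldh1a3, held 1601 CPM of all 19 Wnt ligands, of which Wnt4 gave 68.2% and Wnt6 25.9%. Wnt4 was found in 92.6% of its cells at 4000 UMIs. Unnamed cluster 19, led by the chromaffin genes Chgb and Chga, was the cluster with the most Wnt7a, at 52.3 ± 28.3 CPM (SD, n = 3 lots) from 76 UMIs in 119 cells. It also held Wnt16 (7.42 ± 3.34 CPM from 13 UMIs) and Wnt9b (5.97 ± 5.63 CPM from 10 UMIs). Cluster 14, with few UMIs per cell (medians of 1677 to 2912 over lots), had the highest level of Wnt9a (65.7 ± 11.4 CPM), and its Wnt16 value (9.22 CPM) rests on 5 UMIs of 1 lot. Steroidogenic cluster 15, in which 65.4%, 64.5% and 78.1% of the cells held a Y-linked UMI in lots 26, 29 and 30, held Wnt5a at 142, 115 and 199 CPM, and its Wnt4 differed between lots, at 251, 111 and 78.9 CPM, the last from 32 cells.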
